A study of Mus musculus with 16 samples.

Results

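The genes described here are 10 genes of the major histocompatibility complex (MHC) class I pathway, chosen by name for their function, with earlier results of these data known, out of 24467 genes in the deposited tables. They are the heavy chains H2-K1, H2-D1, H2-T23, H2-T22 and H2-Q4, the light chain B2m, the peptide transport and loading genes Tap1, Tap2 and Tapbp, and the transactivator Nlrc5. All 10 had enough reads to be tested. They were followed across 16 bulk RNA-seq libraries. Each was made from sorted cells of a mouse pancreatic ductal adenocarcinoma (PDAC), and every library came from the same KPC 7TCF-eGFP/Porcn-DMA cell line, a KPC mouse PDAC line that carries a TCF-driven eGFP reporter of WNT signalling. The sources used here do not describe the make-up of Porcn-DMA. The cells were grown as orthotopic tumours, meaning in the pancreas of host mice, and sorted by reporter fluorescence into double-negative (DN), GFP-positive (GFP), mScarlet-positive (mScarlet) and double-positive (DP) cells, with 4 libraries and 4 mice per group. The series design names WNT-responsive, WNT-secreting and double-positive cells, but no label says in words which of these the mScarlet gate holds, so groups are called by their reporter here. A single cell line gave all tumours. The sources used here name no host strain, class I haplotype, treatment or age.

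Class I molecules display peptides from inside the cell to CD8 T cells. The heavy chain pairs with beta-2-microglobulin, the product of B2m. Peptides made by the proteasome are pumped into the endoplasmic reticulum by the TAP transporter, a dimer of Tap1 and Tap2, and tapasin, the product of Tapbp, holds empty class I molecules at the transporter until a peptide is bound. H2-K1 and H2-D1 are the classical chains that most CD8 T cells read. H2-T23 encodes Qa-1, a non-classical chain that is a ligand of the inhibitory receptor CD94/NKG2A on natural killer and CD8 T cells, and H2-T22 encodes a non-classical chain recognised by some gamma delta T cells. Nlrc5 is a transactivator that works at class I, B2m and TAP promoters, and interferon gamma raises the whole set in many cell types. Loss of class I display is a known route of immune escape in pancreatic cancer.

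The libraries held between 80647185 and 104273669 counts. Keratins checked the cancer cell label: the summed level of 7 epithelial markers ranged from 15250 to 41590 CPM (counts scaled to library size), led by Krt19, Krt8 and Krt18, while Epcam, another epithelial marker, was near 0, with a mean of 7.37 CPM in GFP cells and at most 0.23 CPM in the other groups. The epithelial sum was 23790 to 27700 CPM in DN cells and 15250 to 28870 in GFP cells. In mScarlet cells it was 27120 to 41590, with a mean of 34140 against 25470 in DN cells, and in DP cells 26370 to 33560. The part of this difference in the results below was not tested. Transcripts of other cell types were present in every group, although the gate was for cancer cells. The sum of 12 macrophage markers ranged from 944 to 2409 CPM in DN cells, 945.5 to 14470 in GFP cells, 1180 to 2089 in mScarlet cells and 1910 to 3734 in DP cells. The sum of 10 lymphocyte markers stayed between 0.512 and 41.1 CPM in all libraries. Fibroblast markers, 7 genes, summed to 134.6 to 1424 CPM in DN cells and 605.6 to 9095 in GFP cells, against 17.5 to 87.8 in mScarlet cells and 26.6 to 268 in DP cells, so the mScarlet-positive groups were the poorer in them, and Col1a1, Col1a2, Col3a1, Pdgfrb and Dcn were called lower there. GFP library 1 stood apart with the macrophage sum of 14470 and the lowest epithelial sum, and GFP library 4 with 14180 CPM of 6 acinar markers and the highest fibroblast sum. In bulk libraries, fewer cells of a type and less RNA per cell cannot be told apart. Each group comes from 4 mice, but the sources used here do not say which gates share a mouse.

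**Figure D1:**
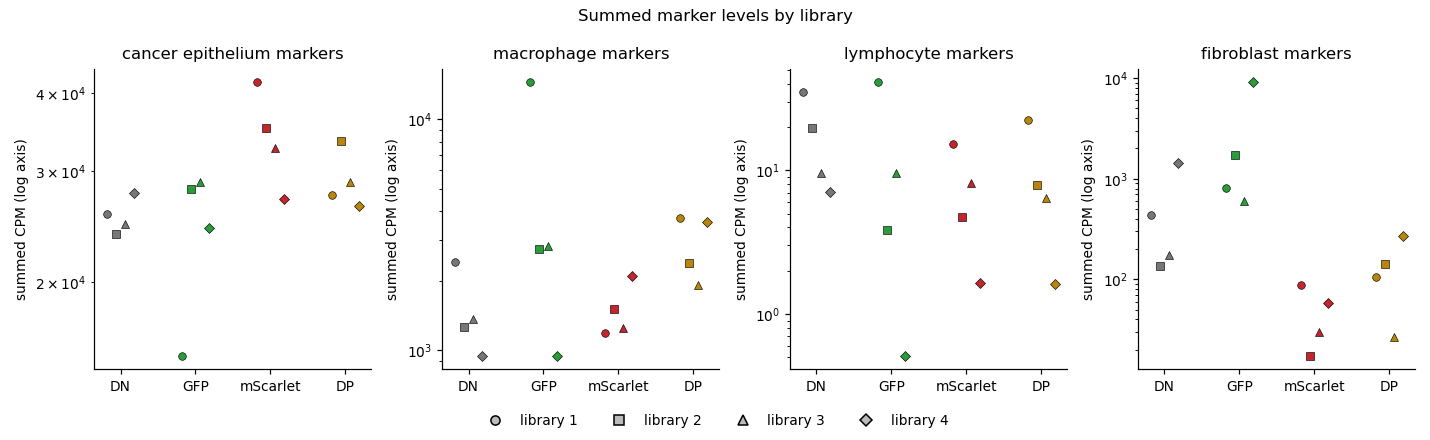
Summed level of marker genes in each library, in CPM on a log axis, for cancer epithelium (7 genes), macrophages (12), lymphocytes (10) and fibroblasts (7). Each point is a library and its shape gives the library number. GFP library 1 is highest for macrophage markers at 14470 CPM, GFP library 4 for fibroblast markers at 9095 CPM, and the mScarlet libraries all lie at or below 87.8 CPM for fibroblast markers.

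The sequences below show where the class I genes resemble each other and where they differ. No link between these letters and the levels was tested. RefSeq promoter sequence of GRCm38.p6 was at hand for 8 of the 10 genes, Tap2 and Nlrc5 being the others. The search covered the 250 bases before the RefSeq start on both strands. Each stretch of 30 bases runs 5′ to 3′ along the strand of the gene. Capitals mark matches to the NF-kB consensus, known as enhancer A in class I promoters, and to the interferon response core AANNGAAA in either orientation. The positions are given from the start, with -1 as the base before it.
H2-K1 (chr17:34000429-34000458, minus strand): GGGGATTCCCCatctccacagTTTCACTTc
H2-D1 (chr17:35262923-35262952, plus strand): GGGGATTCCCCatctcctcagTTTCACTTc
H2-Q4 (chr17:35379443-35379472, plus strand): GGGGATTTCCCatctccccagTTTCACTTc
H2-T22 (chr17:36042926-36042955, minus strand): GGAGAGTCCCtaattggcttagTTTCACTT
B2m (chr2:122147546-122147575, plus strand): atgaAACTGAAAatgGGAAAGTCCCtttgt
H2-T23, distal (chr17:36032807-36032836, minus strand): gatcctactgcTTTCTCTTtcataaagaca
H2-T23, proximal (chr17:36032764-36032793, minus strand): ctcaattctcaTTTCTGTTggacgcctagt
The stretches begin at -111 in H2-K1, -171 in H2-D1, -174 in H2-Q4, -213 in H2-T22, -141 in B2m, and -135 and -92 in H2-T23.

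The paired arrangement of an NF-kB match beside an interferon core was present in H2-K1, H2-D1, H2-Q4, H2-T22 and B2m. The H2-T23 window held 2 interferon cores and no match to these NF-kB letters. Tap1 and Tapbp had no match to either. Across 32851 promoters of the same length, 7.25% held the NF-kB consensus and 21.3% the interferon core. Among the 8 member promoters, 5 held the first and 6 the second. The letters CCAAT were in all 8, against 33.8% of all promoters, and TGACG was in 6, against 17.8%. The interferon gamma element TTCNNNGAA was in 0 of the 8, against 7.02%. H2-D1 shared 202 aligned identical bases of 250 with H2-Q4, or 80.8%, and 170 with H2-K1. H2-T23 shared 129 with H2-D1, near the 136 that H2-T22 and the 132 that B2m shared with it. Tap1 also shared 129 with H2-D1 and Tapbp 121, so counts at this level show no particular resemblance. Other annotated transcripts start upstream of some of these RefSeq starts, and a match is a description of letters, not of binding.

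Levels were compared between genes per kilobase of exon in the GENCODE vM21 basic annotation. H2-K1 was the most abundant, with a mean of 3068 CPM per kb over the 16 libraries and a range of 2365 to 3819. H2-D1 followed at 2019 with a range of 1669 to 2508, overlapping H2-K1 at its edge. B2m was at 1314 with a range of 720 to 1648 and overlapped neither neighbour in this order. Tapbp at 468 and H2-T23 at 406 CPM per kb had ranges of 351 to 616 and 245.5 to 602, which overlapped in part. Tap1 at 88.2, H2-T22 at 73.9 and Tap2 at 48.6 formed a chain of overlapping ranges, and H2-Q4 at 24.8 and Nlrc5 at 1.67 CPM per kb each lay below all others. The 10 genes together took between 0.973% and 1.63% of all counts in a library.

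Reads of the class I heavy chains can be shared between near-identical genes. To see how far, each gene's spliced GENCODE vM21 models were cut into 100-base windows. Windows that also occurred in another gene made up 0.957% for H2-K1, 3.59% for H2-D1 and 3.15% for H2-T23. The shares were 14.1% for H2-Q4 and 31.5% for H2-T22, whose values as single genes are uncertain. Tap1 shared 1.93% of windows with its neighbour Psmb9, and Tap2 shared 4.99% and Tapbp 14.8%, mostly with overlapping or antisense models. The sources used here do not state whether the counting used strand, so reads of a gene and its antisense partner cannot be told apart. Windows shared by B2m and by Nlrc5 were 0.

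The comparison between mScarlet-positive and mScarlet-negative cells asked how the pathway differs with the mScarlet gate. Qa-1 led: H2-T23 was higher in mScarlet than in DN cells and higher in the average over both GFP states, by 1.55-fold. Tap2 and Tapbp, which carry and load the peptides, were also higher in that average, by 1.31-fold and 1.24-fold, and those calls were close to the threshold. Classical heavy chains and B2m had small positive values that did not pass, and Tap1, H2-T22 and H2-Q4 stayed near 0. Of the 10 genes, 3 were called higher and 0 lower in the average of the mScarlet comparisons by the edgeR quasi-likelihood test at a Benjamini-Hochberg adjusted p under 0.05, where 8.73% of the 15963 tested genes were called. All 10 had a positive log2 fold change there, with a median of 0.26, against -0.02 over all genes, although H2-Q4 was negative in 7 of 23 alternative fits, down to -0.06, limma voom and the fit without GFP libraries 1 and 4 among them. Without GFP libraries 1 and 4, the libraries that stood apart, 1 of 10 was called in this average, H2-T23. In mScarlet against DN cells 1 of 10 was called, where 1.18% of all genes were, and the median of the 10 was 0.25, against 0.00 over all genes. In DP against GFP cells 0 of 10 were called, where 0.564% of all genes were, 9 of 10 values were positive and the median was 0.19, against -0.04 over all genes. DP and GFP libraries are not part of the mScarlet against DN difference, but all 16 libraries share 1 estimate of the spread. The library number was left out of this fit, and calls with it as a block are given below.

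**Figure D2:**
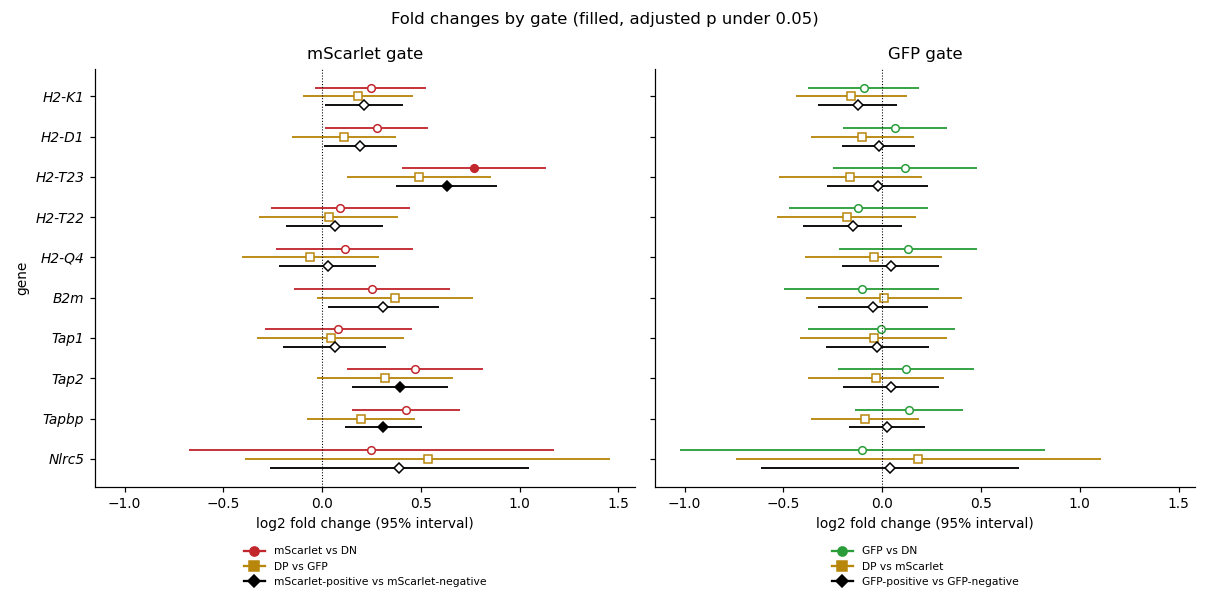
Log2 fold change of each gene with its 95% interval, for the mScarlet gate (left) and the GFP gate (right). Circles and squares are the 2 pairwise comparisons, diamonds their average, and filled symbols have an adjusted p under 0.05. H2-T23 lies farthest from 0 among the filled symbols of the mScarlet gate, at 0.77 and 0.63, and no symbol of the GFP gate is filled.

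H2-T23, the Qa-1 gene at chr17:36029977-36032701, had levels of 361, 499, 445 and 497 CPM in DN libraries 1 to 4, and 459, 589, 537 and 367 CPM in GFP libraries. It had 886, 864.5, 639 and 682 CPM in mScarlet libraries and 698, 836.5, 579 and 632 CPM in DP libraries. Every mScarlet library lay above every DN and every GFP library, and every DP library lay above every DN library. Over all tested genes, 5.03% had every mScarlet library above every DN library, 5.68% every DP library above every DN library, and 3.73% every mScarlet library above every GFP library. DP library 3 at 579 CPM fell below GFP library 2 at 589 CPM, the point at which the DP and GFP groups overlapped. The log2 fold change was 0.77 (SE 0.172, edgeR quasi-likelihood adjusted p = 0.0435, n = 4 per group) in mScarlet against DN cells. In DP against GFP cells it was 0.49 (SE 0.172, edgeR adjusted p = 0.165), higher in 4 of 4 same-numbered pairs but not called. Their average was 0.63 (SE 0.122, edgeR adjusted p = 0.00556), with 8 of 8 same-numbered pairs higher. Blocking on the library number gave edgeR adjusted p values of 0.0105, 0.0723 and 0.0015 in these comparisons. The average was still called with each of the 16 libraries left out in turn (edgeR adjusted p 0.00428 to 0.0161) and without GFP libraries 1 and 4 together (log2 fold change 0.52, adjusted p = 0.0246). The call in mScarlet against DN cells was lost in 11 of those 16 fits, without any of DN libraries 1, 2, 3 and 4, GFP library 3, mScarlet libraries 1, 2 and 3, or DP libraries 1, 3 and 4, with log2 fold changes between 0.66 and 0.83 and adjusted p between 0.0521 and 0.174.

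**Figure D3:**
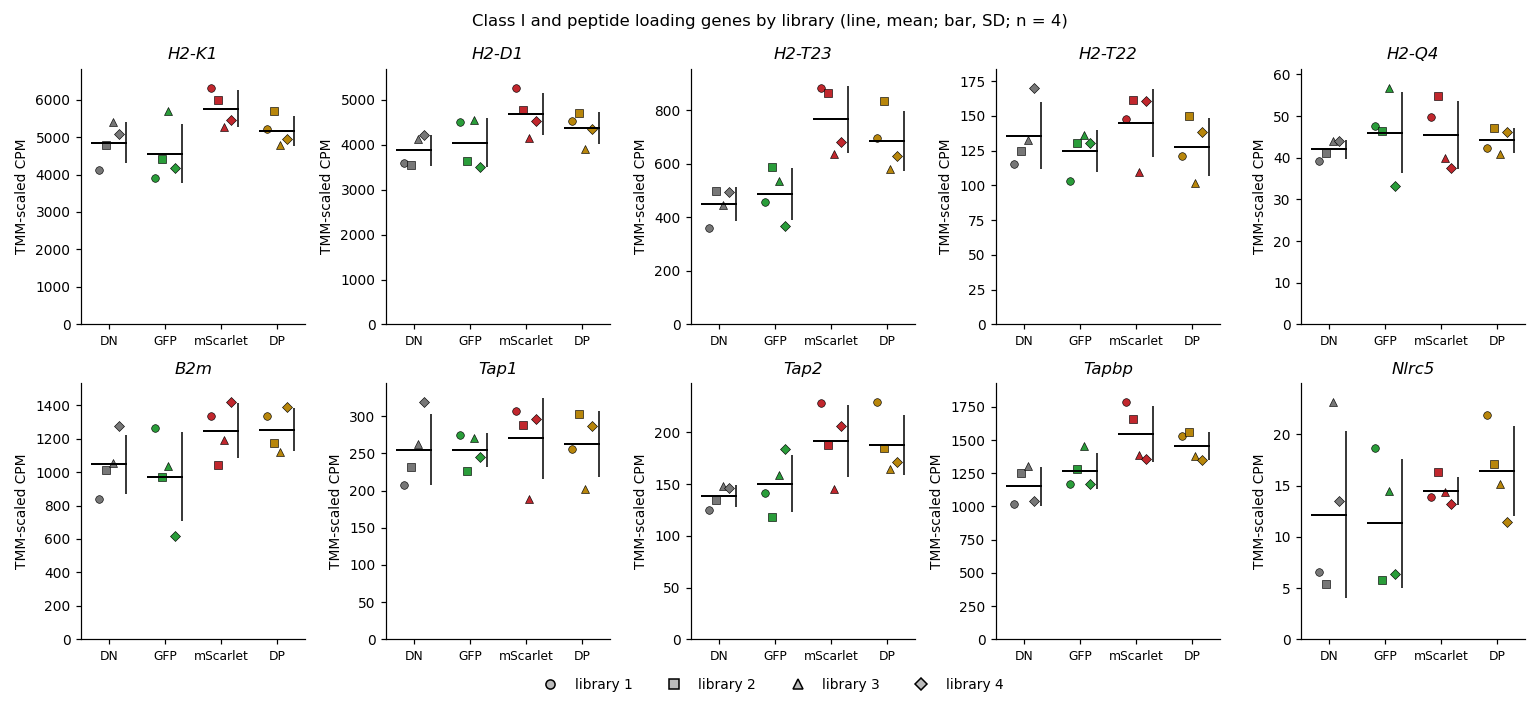
Level of the 10 genes in each library, in TMM-scaled CPM on linear axes that start at 0. Each point is a library, its shape gives the library number, the horizontal line is the group mean and the vertical bar is 1 SD (n = 4). H2-T23 has mScarlet libraries at 639 to 886 CPM, above all DN and GFP libraries, which reach 589 CPM.

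H2-K1, a classical heavy chain, had 4112, 4800, 5406 and 5091 CPM in DN libraries 1 to 4 and 3914, 4416, 5686 and 4176 CPM in GFP libraries. It had 6320, 5993, 5258 and 5442 CPM in mScarlet libraries and 5221, 5693, 4777 and 4948 CPM in DP libraries. The groups overlapped in every comparison, with DN library 3 and GFP library 3 among the mScarlet and DP values. The average log2 fold change with the mScarlet gate was 0.21 (95% interval 0.02 to 0.41, edgeR adjusted p = 0.171) and 6 of 8 same-numbered pairs were higher.

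H2-D1, the other classical chain, had 3595, 3541, 4136 and 4216 CPM in DN libraries 1 to 4 and 4509, 3631, 4541 and 3508 CPM in GFP libraries. Its mScarlet libraries were at 5272, 4779, 4160 and 4536 CPM and its DP libraries at 4523, 4715, 3904 and 4346 CPM. The ranges overlapped again, mScarlet library 3 lying below DN library 4. Its average log2 fold change was 0.19 (95% interval 0.01 to 0.38, edgeR adjusted p = 0.188). H2-T22 had values from 102 to 170.4 CPM and H2-Q4 from 33.2 to 56.9 CPM over all libraries. Neither of these non-classical genes separated any pair of groups, and their averages were 0.06 (95% interval -0.18 to 0.31) and 0.03 (-0.22 to 0.27) on the log2 scale.

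B2m, the light chain that every class I heavy chain needs, had 839.5, 1013, 1055 and 1274 CPM in DN libraries 1 to 4 and 1265, 968, 1037 and 619 CPM in GFP libraries. It had 1337, 1043, 1191 and 1417 CPM in mScarlet libraries and 1333, 1176, 1120 and 1387 CPM in DP libraries. All 8 same-numbered pairs were higher with the mScarlet gate, yet the groups overlapped, since DN libraries 3 and 4 and GFP library 1 reached the mScarlet range. GFP library 1, with the high macrophage sum, had the highest B2m of its group and GFP library 4, with the high acinar sum, the lowest of all 16, and the part of these cells in the result was not tested. The average log2 fold change was 0.31 (95% interval 0.03 to 0.59, edgeR adjusted p = 0.157).

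Tap2, a subunit of the TAP dimer, had 125, 135, 148 and 146.5 CPM in DN libraries 1 to 4 and 141.5, 118, 159 and 184 CPM in GFP libraries. It had 228, 188, 146 and 206 CPM in mScarlet libraries and 229, 185, 164 and 172 CPM in DP libraries. Every DP library was above every DN library, as in 5.68% of all tested genes. However, mScarlet library 3 fell within the DN range and GFP library 4 within the DP range. The average log2 fold change was 0.39 (SE 0.115, edgeR adjusted p = 0.0444), with 6 of 8 same-numbered pairs higher. The call was kept in 2 of the 16 fits with 1 library left out, those without GFP library 4 or mScarlet library 3, and lost in the other 14 with adjusted p between 0.0556 and 0.116 and log2 fold changes of at least 0.33. It was also lost in edgeR with RLE size factors (adjusted p = 0.0637), with no expression filter (0.0644) and without GFP libraries 1 and 4 (0.051). With library number as a block it was kept (edgeR adjusted p = 0.0304), in a fit that called 14.4% of all genes.

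Tap1, its partner in the dimer, did not show the same separation. It had 207, 232, 263 and 319 CPM in DN libraries 1 to 4 and 275, 226, 270.5 and 246 CPM in GFP libraries. It had 307, 288, 189 and 296 CPM in mScarlet libraries and 256, 303, 202 and 287 CPM in DP libraries. The lowest value of all was mScarlet library 3 and the highest was DN library 4. The average log2 fold change was 0.06 (95% interval -0.20 to 0.33, edgeR adjusted p = 0.817), and 4 of 8 same-numbered pairs were higher.

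Tapbp, the tapasin gene, had 1017, 1253, 1305 and 1040 CPM in DN libraries 1 to 4 and 1170, 1282, 1452 and 1170 CPM in GFP libraries. It had 1784, 1661, 1387 and 1357 CPM in mScarlet libraries and 1534, 1559, 1381 and 1351 CPM in DP libraries. Every mScarlet and every DP library lay above every DN library, and GFP library 3 was the only mScarlet-negative library inside the range of the mScarlet-positive ones. Over all tested genes, 5.03% had every mScarlet library above every DN library and 5.68% every DP library. The average log2 fold change was 0.31 (SE 0.091, edgeR adjusted p = 0.0445), with 7 of 8 same-numbered pairs higher. That call was kept in 3 of the 16 fits with 1 library left out, those without DN library 3, GFP library 3 or mScarlet library 4, and lost in the other 13 with adjusted p between 0.0597 and 0.116 and log2 fold changes of at least 0.25. It was also lost in edgeR with RLE size factors (adjusted p = 0.0583), with no expression filter (0.0701), in limma voom (0.0565) and without GFP libraries 1 and 4 (0.196). With library number as a block the call in the average was kept (edgeR adjusted p = 0.018). In mScarlet against DN cells Tapbp was higher by 0.42 on the log2 scale without being called (edgeR adjusted p = 0.129), and it was called once library number entered as a block (adjusted p = 0.0447). The block brought the called members in mScarlet against DN cells from 1 to 2, where 5.42% of all genes were then called, and left the average at 3, where 14.4% were.

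Nlrc5, the class I transactivator, was low and variable. It had 6.61, 5.35, 23.1 and 13.6 CPM in DN libraries 1 to 4 and 18.7, 5.82, 14.5 and 6.36 CPM in GFP libraries. It had 13.9, 16.3, 14.4 and 13.2 CPM in mScarlet libraries and 21.9, 17.1, 15.2 and 11.4 CPM in DP libraries. The mScarlet libraries spanned 1.34 CPM of SD against 8.15 CPM in DN, where library 3 was the highest of all 16. The average log2 fold change was 0.39 with a 95% interval from -0.26 to 1.05 (edgeR adjusted p = 0.483), so a difference of the size seen for H2-T23 lies inside the interval.

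Ratios of counts inside a library do not depend on how libraries are scaled. H2-T23 had 4.69, 5.99, 4.66 and 5.34 counts per 100 counts of H2-K1 and H2-D1 in DN libraries 1 to 4, and 5.45, 7.32, 5.25 and 4.78 in GFP libraries. The ratio was 7.64, 8.03, 6.78 and 6.83 in mScarlet libraries and 7.17, 8.04, 6.67 and 6.8 in DP libraries. All 8 mScarlet-positive libraries exceeded 7 of the 8 mScarlet-negative ones, GFP library 2 being the exception. The means were 5.17 ± 0.628 (SD, n = 4) in DN cells and 5.7 ± 1.11 in GFP cells, against 7.32 ± 0.613 in mScarlet cells and 7.17 ± 0.616 in DP cells. Tap2 counts per Tap1 count averaged 0.552 ± 0.0636 in DN cells, 0.593 ± 0.108 in GFP cells, 0.716 ± 0.0527 in mScarlet cells and 0.73 ± 0.148 in DP cells, and only the mScarlet and DN libraries were apart, at 0.651 or more against 0.603 or less. B2m per 100 counts of the classical chains ran from 8.06 to 15.0 and overlapped in all groups. A ratio shows unequal change between 2 genes, not which of them changed, and these were given no test.

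**Figure D4:**
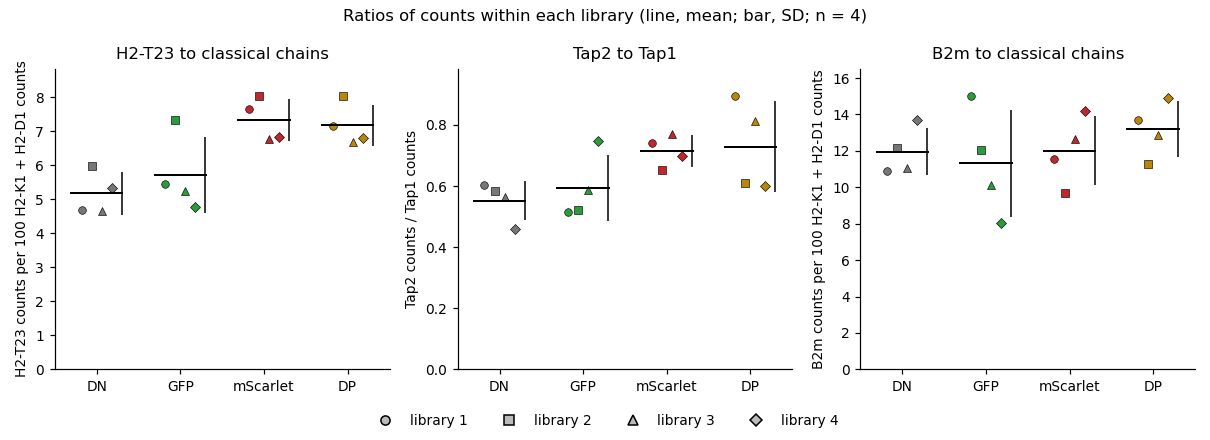
Ratios of raw counts within each library for H2-T23 against the classical chains H2-K1 and H2-D1 (left), Tap2 against Tap1 (middle) and B2m against the classical chains (right). Points are libraries, lines group means and bars 1 SD (n = 4). H2-T23 lies at 6.67 or more counts per 100 in all mScarlet and DP libraries, and at 5.99 or less in all DN and GFP libraries except GFP library 2 at 7.32.

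The size of the mScarlet difference varied between library numbers. Each gate has a single library per number, and this variation was not tested. Between same-numbered mScarlet and DN libraries, 10 of 10 genes were higher at number 1 (median log2 ratio 0.65), 10 at number 2 (0.41), 4 at number 3 (-0.03) and 6 at number 4 (0.10). Between DP and GFP libraries, 8 of 10 were higher at number 1 (0.23), 10 at number 2 (0.37), 4 at number 3 (-0.15) and 9 at number 4 (0.28). Number 3 was the lowest in both comparisons, and over all tested genes the share that was higher stayed between 46.6% and 49.7% in these 8 pairs. H2-T23 was positive at all 8, from 0.11 for DP against GFP at number 3 to 1.29 for mScarlet against DN at number 1. These counts are a description, because 10 genes of a library share its preparation and are not replicates.

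**Figure D5:**
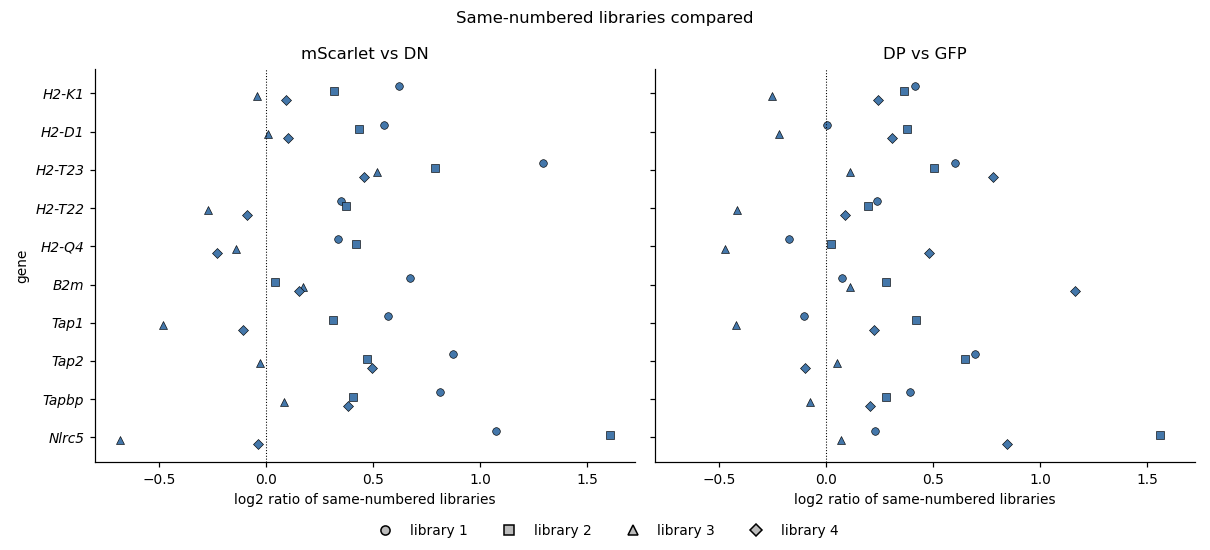
Log2 ratio of the CPM of same-numbered libraries, mScarlet over DN (left) and DP over GFP (right), for each gene. The shape gives the library number. H2-T23 is right of 0 at every number, while 6 of the 10 genes at number 3 are left of 0 in each panel.

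The comparison by the GFP gate gave no call. In GFP against DN cells 0 of 10 members were called, where 0.0% of all genes were, and 5 were positive. In DP against mScarlet cells 0 of 10 were called, where 0.0% of all genes were, and 2 were positive. Their average likewise had 0 of 10, with 0.0% of all genes, and 4 positive with a median of -0.02 against 0.01 over all genes. At an unadjusted p under 0.05 the edgeR counts over all genes were 1551, 460 and 1551, and DESeq2 called 246, 50 and 323 genes and limma voom 2, 0 and 1, with 0 members in any of them. The replicate block called 11, 0 and 80 genes, or 0.501% in the average, and again 0 members. For H2-T23 the average log2 fold change with the GFP gate was -0.02, with a 95% interval from -0.28 to 0.23. For H2-K1 the interval ran from -0.32 to 0.07, for B2m from -0.33 to 0.23, for Tap2 from -0.20 to 0.29 and for Tapbp from -0.17 to 0.22. The interaction, which tests whether the mScarlet difference depends on the GFP gate, called 0 of 10 members and 0.0% of all genes (525 at an unadjusted p under 0.05). For H2-T23 it was -0.28 on the log2 scale, with a 95% interval from -0.79 to 0.24, so the call in GFP-negative cells alone is no sign of a different response.

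In DP against DN cells 0 of 10 members were called, where 2.32% of all genes were, although 9 of 10 values were positive with a median of 0.22. There H2-T23 was at 0.61 on the log2 scale (SE 0.172, edgeR adjusted p = 0.0828), and blocking on library number gave a call (adjusted p = 0.0294), where 6.37% of all genes were. In GFP against mScarlet cells 0 of 10 were called, where 1.53% of all genes were. H2-T23 was at -0.65 (SE 0.172, edgeR adjusted p = 0.0617), was called in DESeq2 (adjusted p = 0.0089), and 9 of 10 values were negative with a median of -0.31. These comparisons share libraries with those above and are not separate evidence.

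Other genes of the pathway came from lists fixed with the members. Of 9 other loading and endoplasmic reticulum chaperone genes, 1 was called in the average of the mScarlet comparisons, a share near the 8.73% of all genes. It was Tapbpl, the tapasin-related peptide editor TAPBPR, with means of 93.8 CPM in DN cells and 78.1 in GFP cells, against 129 in mScarlet cells and 114 in DP cells. Every mScarlet library, at 111 CPM or more, lay above every DN library, which reached 105, as in 5.03% of all tested genes. The average log2 fold change of Tapbpl was 0.50 (SE 0.116, edgeR adjusted p = 0.0147). Calr, the calreticulin chaperone, was at 0.01 and Sec61a1, the translocon channel, at 0.05 in the same comparison, and Erap1, the peptide-trimming protease, at 0.50 (edgeR adjusted p = 0.153), none of them called. The list had 9 of 9 positive values with a median of 0.05.

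Of 16 tested other class I and class I-like chains, 0 were called in that average, where 8.73% of all genes were, and the median was -0.01. Fcgrt, the neonatal Fc receptor chain and the most abundant of them, was higher in GFP than in mScarlet cells by 1.24 on the log2 scale (SE 0.281, edgeR adjusted p = 0.0395), with 195 to 628 CPM in GFP and 113 to 176 in mScarlet libraries. H2-Q1, next in abundance, was at 0.07 with the mScarlet gate. Of the 6 immunoproteasome and PA28 genes, which cut peptides that suit class I, 0 were called and 5 were positive with a median of 0.15. Psmb10 was at 0.24, Psmb9 at 0.20 and Psmb8 at 0.19 (edgeR adjusted p = 0.196, 0.384 and 0.466). The 3 constitutive catalytic subunits Psmb5, Psmb6 and Psmb7 had negative values, with a median of -0.20 and 0 called, Psmb6 at -0.20 and Psmb5 at -0.09. In lists this short, a count of 0 is near the 8.73% of all genes.

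Among regulators, 1 of 10 interferon receptor and JAK-SOCS genes was called, a share near the 8.73% of all genes. It was Ifngr1, a chain of the interferon gamma receptor, which was higher with the mScarlet gate by 0.52 (SE 0.149, edgeR adjusted p = 0.0425). Its means were 201 CPM in DN cells and 187 in GFP cells, against 265 in mScarlet cells and 290.5 in DP cells. Ifngr2, the other chain of that receptor, was at 0.43 (edgeR adjusted p = 0.0636) and was called with the library number as a block, which made 2 of 10, where 14.4% of all genes were called. Socs3, the most abundant of that list and an inhibitor of cytokine signalling, was at -0.21. Of 14 transcription factors of class I promoters 0 were called and 10 were positive with a median of 0.08. Irf1, an interferon-induced activator, was at 0.23 (edgeR adjusted p = 0.587) and Rela, an NF-kB subunit, at 0.00. Of 20 interferon-stimulated genes 0 were called, 15 were positive and the median was 0.38, with Igtp at 0.35 and Ifitm3, most abundant, at -0.87 (edgeR adjusted p = 0.0688). Blocking on library number called 6 of these 20, in a fit that called 14.4% of all genes: the antiviral factors Irf7, Oas1a and Oasl2 and the deubiquitinase-family gene Usp18 were higher, and the antiviral membrane proteins Bst2 and Ifitm3 lower.

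Among genes known to restrain class I, Wwp2, a ubiquitin ligase and the most abundant of that list, was at 0.28 (edgeR adjusted p = 0.254) and was called higher only with the block.

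Ligands and checkpoints read by T and NK cells gave 1 call among 13 tested, a share near the 8.73% of all genes. Lgals9, which encodes the lectin galectin-9, was higher with the mScarlet gate by 0.35 (SE 0.09, edgeR adjusted p = 0.0251), with 448 to 636 CPM in the DN and GFP libraries and 641 to 757 CPM in the mScarlet and DP libraries, without overlap. Over all tested genes, 0.908% had every mScarlet and DP library above every DN and GFP library. With the block Cd47, the signal that restrains phagocytosis, was called too, at 0.25 and an edgeR adjusted p of 0.0765 without it. Nectin2, a ligand of natural killer cell receptors, was at 0.35 (edgeR adjusted p = 0.245), and Cd274, the PD-L1 gene, at -0.11 with group means from 7.64 to 13.4 CPM. Of 9 MHC class II genes 0 were called, 7 were positive and the median was 0.17. Cd74, the invariant chain, was at 0.38 (edgeR adjusted p = 0.158), H2-Ab1 at 0.04, H2-Aa at 0.23 and their transactivator Ciita at 0.52 (0.18). Cd74 had a mean of 3658 CPM in DN cells, where Ptprc, the CD45 gene of blood cells, was at 1.69, Csf1r of macrophages at 68.7, Cd3e of T cells at 3.47 and Cd79a of B cells at 3.7. The sum of 12 macrophage markers there was 944 to 2409 CPM, and Cd14, one of them, had a mean of 1204 CPM over all libraries. Which cells the Cd74 RNA came from was not tested.

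The genes whose levels most resembled the members were taken by Pearson correlation over the 16 libraries between their log2(CPM + 1) and the mean standardised log2(CPM + 1) of the 10 members, among 9726 other genes with a mean of at least 5 CPM. The first 10 were Gm11127 (0.90), Gm7030 (0.86), H2-T-ps (0.84), H2-DMb1 (0.84), H2-Q10 (0.82), Parp9 (0.82), Endod1 (0.81), Tbc1d2 (0.80), Arel1 (0.79) and Tapbpl (0.79). Gm11127 and Gm7030 are class I-like genes of the region that shared 49.9% and 55.7% of their 100-base windows with other genes, so their reads cannot be fully told apart from those of other class I genes. H2-DMb1 belongs to the class II loading machinery and Parp9 is an interferon-induced gene. Ifngr1 was at rank 57 (0.73), ahead of Psmb9 at 674 (0.57) and Irf1 at 3613 (0.21). Among the 45 pairs of members the correlation over 16 libraries ran from 0.05 for H2-Q4 and Tap2 to 0.88 for H2-T23 and Tapbp, with a median of 0.49, and a median of 0.44 once group means were removed. All points share the library's depth and preparation.

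Levels of fibroblast markers moved with the mScarlet gate. In the average of the mScarlet comparisons, where 8.73% of all genes were called, all 7 fibroblast markers were lower with 5 called. Their median log2 fold change was -4.19. Of the 12 macrophage markers 11 were lower, 0 of them called. Their mean sum was 1492 CPM in DN and 1505 in mScarlet cells, against 2900 in DP and 5241 in GFP cells. GFP library 1, at 14470 CPM, had the highest of these sums. Over the 16 libraries the correlation of H2-T23 with the summed macrophage markers was -0.03 and with the fibroblast markers -0.65, and for Tapbp it was -0.06 and -0.61. For Tap2 the values were -0.11 and -0.35. The part of fibroblast RNA in these results was not tested. In mScarlet and DN cells the sum of the 7 fibroblast markers was at most 1424 CPM in any library, which does not give the total RNA of fibroblasts.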

How the data were processed

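The 16 libraries were made from FACS-sorted cancer cells, lysed on collection, by a low-input full-length cDNA protocol with PCR (SMARTerSeq2) and paired-end sequencing, per the labels' protocols. The authors deposited 1 table per library of whole-number counts per Entrez gene, per the file headers. The submitters' processing notes name STAR, DESeq2 1.24.0 and GRCm38 (mm10), without roles. The read counter, annotation and strand setting are not named there or in the labels (not given in the sources used here). PCR copies cannot be told from separate molecules in these counts.

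Symbols were matched for 24437 of 24467 gene IDs by the RefSeq gene table, and the 30 without a symbol held 0.723% to 1.931% of a library's counts. Genes passing edgeR's expression filter by group (15963) were tested with edgeR 4.0.16 in R 4.3.3: TMM scaling, a robust quasi-likelihood fit of 4 group means over all 16 libraries, contrasts between groups and their averages, and Benjamini-Hochberg adjustment over all genes tested, with a call at an adjusted p under 0.05. The script was tested on simulated counts. CPM values are TMM-scaled. Groups come from the sample titles. The members and the lists of other genes were chosen with earlier results of these data known. Named in the text are the members, list genes called in any comparison, the 2 most abundant genes of each list, a few fixed genes such as Psmb8 to Psmb10 and Ciita, the 3 most abundant markers of other cell types, and the 10 genes most like the members; some that the rule names are not reported here. Cd47, Ifngr2 and the interferon-stimulated genes called with the block were named after their values were seen.

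Titles number the libraries 1 to 4 in each group. Deviations from group means correlated between same-numbered libraries in 24 pairs with r from 0.092 to 0.608 (median 0.294, 23 above 0.1) and between different numbers with a median of -0.138. The rule of a correlation above 0.1 in every pair held in each pairwise comparison except GFP against mScarlet. By that rule the numbers pair those libraries, but the main fit and its calls left the pairing out. Only the replicate block, an alternative fit, took it in. This pairing comes from the data, not from the labels. Alternatives were RLE size factors, no expression filter, DESeq2 1.42.0, voom in limma 3.58.1, the replicate block, each library left out, GFP libraries 1 and 4 left out, only the compared libraries, and a fit without robust spread, the last chosen after seeing the data.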

Additional observations from a re-analysis of the deposited data

Results flagged for a closer look

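Tap1 in mScarlet library 3 had 188.7 CPM, far below the other mScarlet libraries at 288.2 to 307.3 CPM. Its gap to the nearest library was 0.839 of the group's range, above Dixon's 95% critical value for 4 samples. Of 40 combinations of gene and group that were examined this was the only one past that value, and chance passes it in about 1 in 20 groups. DP library 3 was also the lowest of its group, at 202.1 CPM.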

How the results depend on the processing

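In mScarlet against DN cells 1 member was called, 2 with DESeq2, 2 with the replicate block and 0 to 1 with 1 library left out. In the average of the mScarlet comparisons 3 were called, 1 with RLE size factors, 1 with no expression filter, 1 without GFP libraries 1 and 4, and 1 to 2 with 1 library left out. In DP against DN cells 0 were called, but 1, H2-T23, with DESeq2, with limma voom, with the replicate block and without GFP libraries 1 and 4. In GFP against mScarlet cells 0 were called, but 1, H2-T23, with DESeq2 (adjusted p = 0.0089), with the replicate block (log2 fold change -0.66, adjusted p = 0.0171) and in 0 to 1 with 1 library left out, called without GFP library 2 (adjusted p = 0.0407). The cause of these shifts was not tested. In DP against GFP cells, the GFP comparisons and the interaction the count was 0 under every alternative run. Over all genes the calls in mScarlet against DN cells were 188 in edgeR, 808 in DESeq2, 765 in limma voom and 865 with the block. Besides these, with Tapbp the second call in mScarlet against DN cells, the block changed no member call.

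Of 90 pairs of member and comparison, 36 changed sign under some alternative, all of them uncalled and none above 0.285 in absolute log2 fold change, and the 7 pairs called in some fit of all libraries did not. Depth does not limit these genes: even Nlrc5, the lowest, had 486 to 2091 counts per library, and the spread between libraries sets the precision.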
